A study of Homo sapiens with 3 samples.

Results

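The genes described here encode the proteins that remove introns from pre-mRNA and choose which exons are kept: heterogeneous nuclear ribonucleoproteins (HNRNP genes), SR and TRA2 proteins, the SNRP proteins of the small nuclear ribonucleoproteins (snRNPs), the SF3 and U2AF factors, and the PRPF proteins. They were picked by a symbol pattern, from probe sets paired with exactly 1 symbol, with antisense, divergent and pseudogene symbols left out. Earlier results of these data were known when this family was picked, so the shares below may not be independent of that choice. This gave 66 genes among 19775 on the array, measured by 193 of 41097 probe sets with 1 symbol; 18 genes had 1 probe set and 48 had 2 or more. A further 8 symbols of these families, among them SRSF2, SRSF9 and HNRNPH2, were met only on probe sets shared with other symbols and are not analysed here, and 3 symbols (HNRNPA3P1, HNRNPD-DT and SNRPF-DT) were left out by the choice of symbols.

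The study used MDA-MB-231, an established human breast cancer line that is usually classed as lacking the oestrogen receptor alpha. All cells had a preincubation of 4 h, with serum (10% of the medium) stripped by charcoal of most of its steroids, followed by 3 h of treatment. The groups were vehicle (0.1% ethanol), estradiol at 1 µM, and ERα17p, a peptide taken from the oestrogen receptor alpha, at 1 µM. An ethanol content is recorded for the vehicle group alone, so it is not known whether the treated cultures matched it. Each group is 1 Affymetrix HG-U133 Plus 2 array. With 1 array per group no difference has a replicate check or a test, and this small number of arrays limits how precise any value is.

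Splicing proceeds on the spliceosome, whose snRNPs carry a ring of Sm proteins around their RNA and add proteins of their own. U2AF binds the end of the intron and lets the SF3 proteins of the U2 snRNP settle on the branch point, and PRPF proteins bring in the remaining snRNPs and drive the catalytic rearrangements. HNRNP and SR proteins bind the pre-mRNA itself, and their balance sets exon choice in many transcripts. Several SR, TRA2 and HNRNP genes limit their own output by splicing their transcripts into forms that are destroyed.

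Values below are centred log2 values as deposited: each probe set had been set to 0 at a reference level that no source describes, so a value says how far an array lay from that reference and not how strongly a gene was expressed. The identity of the cells could therefore not be checked on marker levels. A gene's value on an array is the median of its probe sets, and a difference is the value on 1 array minus that on another. A gene is called higher or lower at 1.5-fold, a log2 difference of 0.58, and 2-fold counts, a log2 difference of 1, are given beside it. In RNA from a whole culture, less RNA per cell and fewer cells with the RNA cannot be told apart.

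The vehicle array, which enters both comparisons with a treatment, differed from the treated arrays in RNAs added during the assay. Labelling spikes (27 probe sets) had a median difference of 2.03 for estradiol and 2.04 for ERα17p against vehicle, hybridisation spikes (18 probe sets) of -0.74 and -0.93, and the SD of all centred values was 0.494 on the vehicle array against 0.260 and 0.241 on the treated ones. The part of this in the differences from vehicle described here was not tested. The direct comparison of the treated arrays leaves the vehicle array out, and its values are given with each group.

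Of the 66 splicing genes, 15 were at least 1.5-fold lower with estradiol than with vehicle and 1 was higher. Over all 19775 genes the shares were 8.25% lower and 10.4% higher, against 22.7% and 1.52% of the splicing genes. At 2-fold, 7 splicing genes were lower (10.6%, against 2.14% of all genes) and 0 higher (3.82% of all genes). The median difference over the 66 genes was -0.17, and over all genes 0.00. These shares describe the arrays and are no test.

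On the ERα17p array 16 of the 66 genes were at least 1.5-fold lower than on the vehicle array and 1 was higher, or 24.2% and 1.52%, beside 8.53% and 9.27% of all genes. At 2-fold 6 were lower (9.09%, against 2.44% of all genes) and 0 higher (3.21% of all genes), and the median was -0.14, beside 0.00 over all genes. The 15 genes lower with estradiol were all among the 16 lower with ERα17p; both lists were measured against the same vehicle array. Directly against estradiol, 0 of the 66 genes were 1.5-fold higher or lower on the ERα17p array, beside 1.25% and 2.06% of all genes, and the farthest difference was 0.48.

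**Figure D1:**
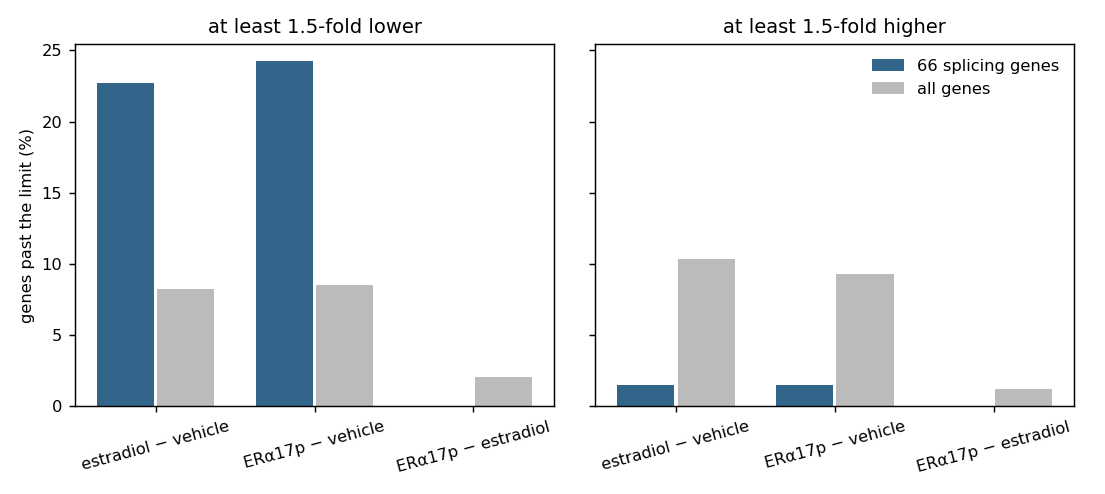
Share of genes at least 1.5-fold lower (left) or higher (right), in percent, in each of the 3 comparisons between single arrays; blue bars are the 66 splicing genes and grey bars all 19775 genes. The blue bars stand at 22.7% and 24.2% on the lower side of the comparisons with vehicle, beside 8.25% and 8.53% in grey, and at 0 in the direct comparison.

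The vehicle array was also the one on which splicing genes lay farthest from the reference. There, 14 of the 66 genes were at least 1.5-fold above the reference level and 1 was below (21.2% and 1.52%, against 4.97% and 5.98% of all genes). On the estradiol array 0 splicing genes were that far from the reference in either direction (1.28% and 0.516% of all genes), and on the ERα17p array also 0 (0.496% and 0.632%). All 16 genes called lower in either comparison with vehicle were above the reference on the vehicle array. In all 16 both treated arrays were within 1.5-fold of it. Few genes of any kind lay farther than that on the treated arrays, so a lower call made this pattern nearly certain. The same count was not made over all genes, and it says nothing particular about splicing genes. Since it is not known which arrays made up the reference, the array that departed cannot be named.

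**Figure D2:**
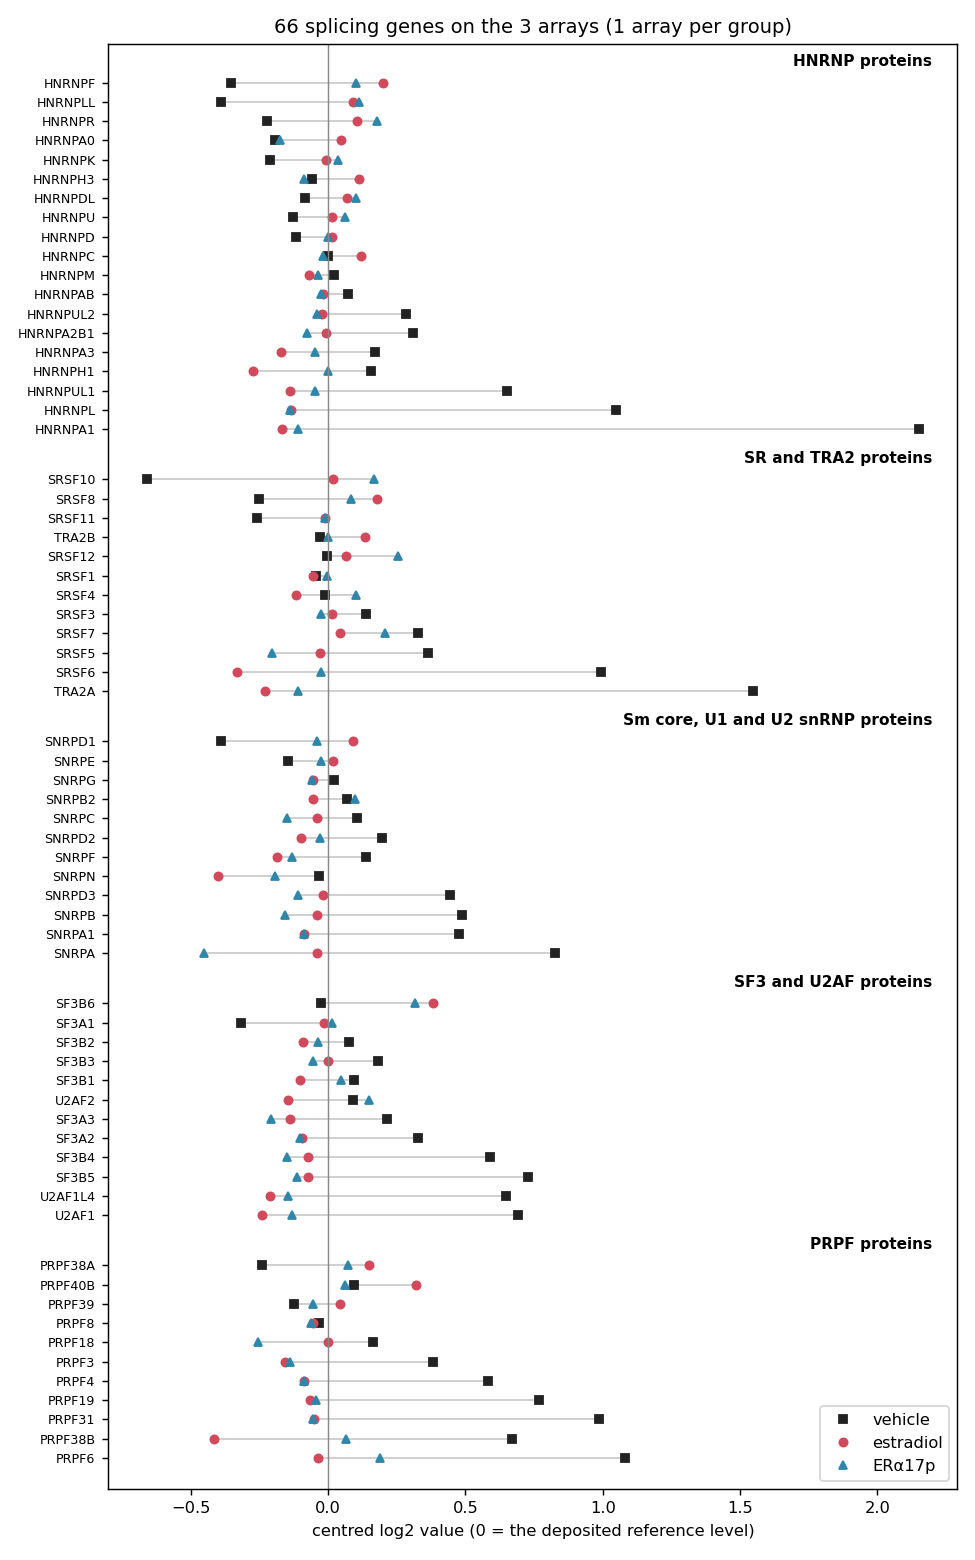
Centred log2 value of each of the 66 genes (rows, by role group) on the vehicle (black square), estradiol (red circle) and ERα17p (blue triangle) arrays, with 0 as the deposited reference level. The treated arrays lie close together for every gene, within 0.48, and the black squares reach 2.15 at HNRNPA1 and -0.66 at SRSF10.

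HNRNP proteins coat nascent transcripts and often act as repressors of exon inclusion. Among 19 HNRNP genes 3 (15.8%) were lower and 0 higher with both treatments. Over all genes 8.25% and 8.53% were lower, and 10.4% and 9.27% higher. The HNRNP median was 0.12 for estradiol and -0.03 for ERα17p, and the group as a whole was not shifted down with estradiol. HNRNPA1, a repressor of exon inclusion that also carries mRNA out of the nucleus, was at 2.15 with vehicle, -0.17 with estradiol and -0.11 with ERα17p. Vehicle was thus the high array and the treated ones were alike, with differences of -2.32 (4.99-fold) and -2.26 (4.79-fold), the farthest of all 66 genes in both comparisons. Its 3 probe sets lay between -2.62 and -1.71 for estradiol and between -2.54 and -1.81 for ERα17p. The platform annotation gives each of them a target sequence other than a RefSeq transcript. HNRNPA1 has near-identical pseudogene copies, so its signal cannot be assigned to the gene with certainty.

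HNRNPL, which binds CA-rich sequence, was at 1.05 with vehicle and at -0.14 with either treatment; below, 3 values in a row are vehicle, estradiol and ERα17p in that order. Its differences were -1.18 and -1.19, and its 2 probe sets were both at -1.04 or below in both comparisons. HNRNPLL, its paralogue, was at -0.39, 0.09 and 0.11, which is lower on vehicle and opposite in direction to HNRNPL, with differences of 0.48 and 0.50. HNRNPUL1, a relative of HNRNPU, was at 0.65, -0.14 and -0.05, with both probe sets past 1.5-fold (-0.79 and -0.70 for the gene).

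HNRNPF, which binds runs of G, was at -0.35 on vehicle, 0.20 on estradiol and 0.10 on ERα17p (0.55 and 0.45). HNRNPR was at -0.22, 0.10 and 0.18, and HNRNPK, which binds C-rich sequence, at -0.21, -0.01 and 0.04. HNRNPA0 was at -0.19, 0.05 and -0.17. These genes were below the reference on vehicle and none passed 1.5-fold. The relatives closest to HNRNPA1 in name differed less: HNRNPA2B1 was at 0.31, -0.01 and -0.08 and HNRNPA3 at 0.17, -0.17 and -0.05. HNRNPC, HNRNPM, HNRNPAB, HNRNPD, HNRNPU, HNRNPDL and HNRNPH3 had gene differences between -0.10 and 0.19, and HNRNPUL2 was at -0.31 and -0.32.

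SR proteins recruit the early spliceosome to exons through their arginine-serine domains, and the TRA2 proteins act beside them. Of 12 SR and TRA2 genes 2 were lower (16.7%) and 1 higher (8.33%) with each treatment, with medians of -0.06 and 0.04. The all-gene shares were 8.25% and 8.53% lower, and 10.4% and 9.27% higher. TRA2A was at 1.55 on vehicle, -0.23 on estradiol and -0.11 on ERα17p, so that vehicle was again the high array, with differences of -1.78 (3.43-fold) and -1.66 (3.16-fold). Of its 5 probe sets, 2 stood at 0.00 on vehicle and stayed inside 1.5-fold in both comparisons. They include the only TRA2A probe set designed on a RefSeq transcript, at 0.15 for estradiol and -0.24 for ERα17p. Its paralogue TRA2B, at -0.03, 0.14 and 0.00, differed by 0.17 and 0.03; with the mean of its 4 probe sets the differences were -0.26 and -0.35, on the other side of 0. SRSF6 was at 0.99, -0.33 and -0.03, with differences of -1.33 and -1.02 and both its probe sets past 1.5-fold in both comparisons.

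SRSF10, a splicing repressor when it loses its phosphates, as in heat shock, was the single gene called higher. It was at -0.66, 0.02 and 0.17, low on vehicle, with differences of 0.68 (1.60-fold) and 0.83 (1.77-fold); for estradiol the value was 0.54 with the mean of its 5 probe sets and 0.50 after quantile normalisation, both inside 1.5-fold. SRSF8 was at -0.25, 0.18 and 0.08, SRSF11 at -0.26, -0.01 and -0.01, and SRSF12 at -0.01, 0.07 and 0.25. SRSF5 went the other way, at 0.36, -0.03 and -0.20 (-0.39 and -0.57). SRSF3 and SRSF1, the most studied of the family, were near 0 as genes on all arrays, with differences between -0.17 and 0.04, and SRSF4 (-0.11 and 0.11) and SRSF7 (-0.28 and -0.12) were also inside 1.5-fold.

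The SNRP genes include the Sm ring (SNRPB, SNRPD1, SNRPD2, SNRPD3, SNRPE, SNRPF, SNRPG and the SNRPB relative SNRPN), the U1 proteins SNRPA and SNRPC, and the U2 proteins SNRPA1 and SNRPB2. Of these 12 genes 1 was lower with estradiol (8.33%, near the 8.25% of all genes) and 2 with ERα17p (16.7%, against 8.53%). Higher calls were 0 in both, beside 10.4% and 9.27% of all genes. The medians were -0.31 and -0.24, and 10 and 9 of the 12 were below 0. SNRPA, which binds a stem-loop of U1 RNA, was at 0.82 on vehicle, -0.04 on estradiol and -0.45 on ERα17p. The 3 arrays differed in steps, with differences from vehicle of -0.86 and -1.28, and of -0.41 between the treated arrays, the lowest of the 66 genes there; it rests on 1 probe set. SNRPB was at 0.49, -0.04 and -0.16 (-0.53 and -0.64), called lower with ERα17p alone, and the difference between the treated arrays was -0.12. SNRPA1 was at 0.48, -0.09 and -0.09, just inside 1.5-fold (-0.57 in both). It was past that limit with the mean of its probe sets (-0.77 and -0.71) and without those with the suffixes _x_at and _s_at (-1.82 and -1.34).

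Within the Sm ring SNRPD3 was at 0.44, -0.02 and -0.11, SNRPD2 at 0.20, -0.10 and -0.03 and SNRPF at 0.14, -0.19 and -0.13. SNRPD1 went the other way, at -0.39, 0.09 and -0.04 (0.48 and 0.35), but its 2 probe sets disagreed, at -0.22 and 1.18 for estradiol. SNRPG, SNRPE, SNRPC and SNRPB2 had differences between -0.26 and 0.16. The value of SNRPE turned with the choice of probe sets: it was -0.74 in both comparisons with the mean of its probe sets, and -1.27 and -1.28 without those with the suffixes _x_at and _s_at, past 1.5-fold lower.

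The SF3 and U2AF proteins recognise the branch point and the end of the intron. Of 12 genes 4 (33.3%) were lower with each treatment and 0 higher, with medians of -0.29 and -0.33. Beside this, 8.25% and 8.53% of all genes were lower and 10.4% and 9.27% higher. U2AF1, the small subunit that reads the AG at the intron's end, was at 0.69, -0.24 and -0.13, with differences of -0.93 and -0.83. U2AF1L4, its relative, was at 0.65, -0.21 and -0.15. U2AF2, the large subunit that reads the tract of pyrimidines, was at 0.09, -0.15 and 0.15, so the partners differed by different amounts (-0.23 and 0.06 for U2AF2). SF3B5, a small protein of the SF3B complex, was at 0.73, -0.07 and -0.11 (-0.80 and -0.84), and SF3B4, which tethers the complex near the branch point, was at 0.59, -0.07 and -0.15 (-0.66 and -0.74). Each of U2AF1L4, SF3B5 and SF3B4 rests on 1 probe set.

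The scaffold of the same complex, SF3B1, which grips the branch-point helix, differed by -0.19 and -0.05, and SF3B2 and SF3B3 by -0.23 to -0.11. The value of SF3B1 turned with the summary: the mean of its 5 probe sets was 0.06 and 0.38. The median of its probe set differences was -0.24 and 0.52. For ERα17p its probe sets were at 0.52, 0.92, 0.37, 0.54 and -0.45, and for estradiol at -0.34, 0.87, 0.36, -0.24 and -0.34. SF3B6, which contacts the branch-point adenosine, was at -0.03, 0.38 and 0.32, and SF3A1, of the SF3A complex, at -0.32, -0.01 and 0.01. Both were higher than vehicle by 0.30 to 0.41, inside 1.5-fold, while SF3A2 and SF3A3 were at -0.43 to -0.35.

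PRPF genes had the lowest medians of the role groups, -0.54 for estradiol and -0.52 for ERα17p. In both comparisons 5 of 11 (45.5%) were lower and 0 higher, beside 8.25% and 8.53% of all genes lower and 10.4% and 9.27% higher. PRPF6, a bridge between the U4/U6 and U5 snRNPs, was at 1.08, -0.04 and 0.19 (-1.12 and -0.89). PRPF31, which holds the U4/U6 snRNP together and is mutated in a form of retinitis pigmentosa, was at 0.99, -0.05 and -0.05 (-1.04 in both). PRPF19, the ubiquitin ligase of the complex named after it, was at 0.77, -0.07 and -0.05, and PRPF4, a U4/U6 protein, at 0.58, -0.09 and -0.09. In all 4 the vehicle array was high and the treated arrays differed by 0.22 at most.

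PRPF38B was at 0.67, -0.42 and 0.06, and its difference of 0.48 between the treated arrays was the highest of the 66 genes there. Its 2 probe sets did not move together against vehicle, at -2.30 and 0.13 for estradiol and -1.76 and 0.55 for ERα17p. PRPF8, the large protein at the catalytic centre, was at -0.03, -0.06 and -0.06, and was the member nearest to level across the arrays in this group. PRPF3, of the U4/U6 snRNP, was at -0.54 and -0.52 against vehicle, and PRPF39 at 0.17 and 0.07. PRPF38A, a relative of PRPF38B, was at -0.24, 0.15 and 0.07, and PRPF40B, which acts with the U1 snRNP, was at 0.09, 0.32 and 0.06.

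**Figure D3:**
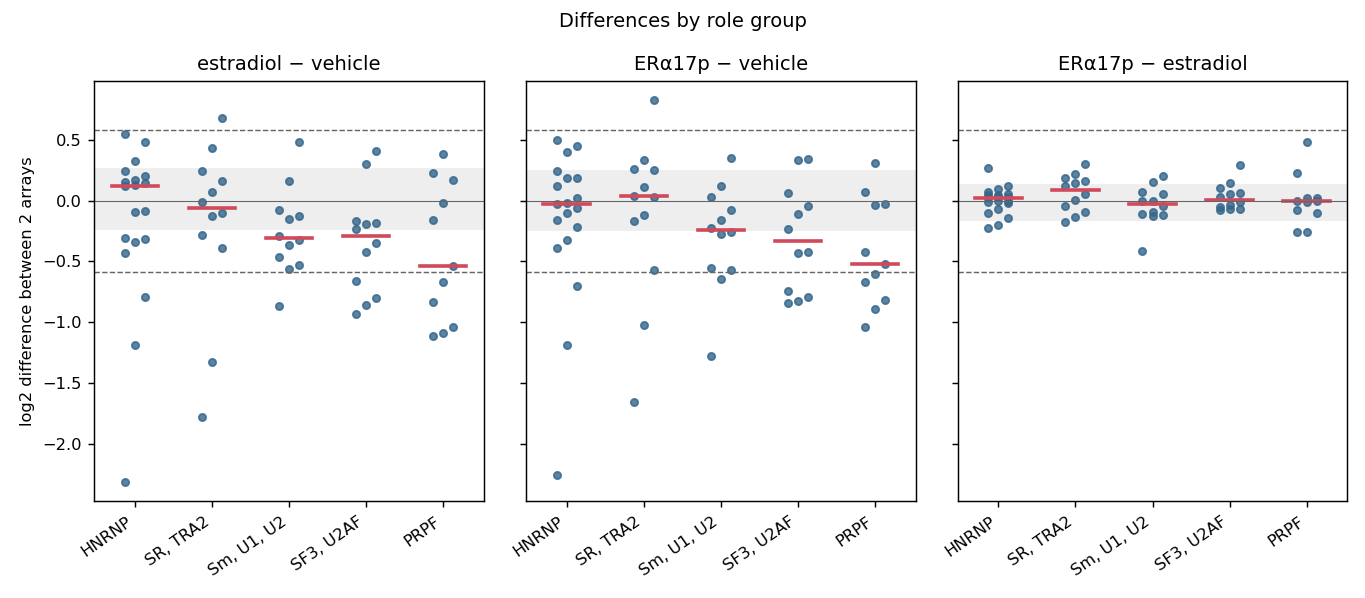
Log2 difference of each gene (points) by role group in the 3 comparisons, with the group median (red bar), the interquartile range of all genes (grey band) and the 1.5-fold limits (dashed). The PRPF medians lie at -0.54 and -0.52 in the comparisons with vehicle, and in the direct comparison every point is inside the limits.

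Scaling changed some of these calls. After quantile normalisation, which gives the arrays the same spread, 12 genes were lower with estradiol and 10 with ERα17p. All of them were among the original 15 and 16. Over all genes that setting gave 6.10% and 7.44% lower, beside 8.25% and 8.53% with the deposited values. For estradiol SF3B5, SF3B4 and PRPF4 went inside 1.5-fold (-0.58 to -0.49), and for ERα17p HNRNPUL1, PRPF19, PRPF38B, PRPF4, PRPF6 and SNRPB did (-0.58 to -0.31). HNRNPA1, TRA2A, SRSF6, HNRNPL, PRPF31, SNRPA, U2AF1 and U2AF1L4 stayed lower in both. Without probe sets that can match several transcripts (suffixes _x_at and _s_at), 3 calls ended: PRPF31 was at -0.24 and -0.01, PRPF4 at -0.18 and -0.30, and SRSF10 at 0.36 and 0.38. That setting left 52 of the 66 genes with a value, and PRPF19, PRPF6, SF3B4, SF3B5 and SRSF6, all called lower, had none. Of the 15 and 16 lower calls 8 and 9 were shared with it. HNRNPA2B1, SNRPA1 and SNRPE were lower there and not with all probe sets in both comparisons, HNRNPH1, SNRPB and SRSF1 for estradiol, and SF3A2 for ERα17p. HNRNPR, HNRNPU, SF3A1 and SNRPD1 were then higher in both.

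The promoters of genes that were 2-fold lower with both treatments are shown because these genes passed the stricter limit in both comparisons. Both comparisons use the same vehicle array, and joint regulation of these genes was not tested. PRPF31 was inside 1.5-fold without _x_at and _s_at probe sets, as given above. RefSeq promoters (build GRCh38.p14, 250 bases before to 50 after a start) were matched for 60 of the 66 genes, 83 promoters in all. Of the 5 genes at least 2-fold lower in both comparisons, SRSF6, HNRNPL (2 starts) and PRPF31 were matched, and HNRNPA1 and TRA2A were not. They are set beside SRSF10, the gene called higher. Capitals mark matches, on either strand, to the GC box GGGCGG that SP factors bind, the CCAAT box CCAAT bound by NF-Y, the ETS-factor motif CCGGAAG, the EGR1 motif GCGTGGGCG and the cAMP response element TGACGTCA.
SRSF6, chr20:43457646-43457945, plus strand: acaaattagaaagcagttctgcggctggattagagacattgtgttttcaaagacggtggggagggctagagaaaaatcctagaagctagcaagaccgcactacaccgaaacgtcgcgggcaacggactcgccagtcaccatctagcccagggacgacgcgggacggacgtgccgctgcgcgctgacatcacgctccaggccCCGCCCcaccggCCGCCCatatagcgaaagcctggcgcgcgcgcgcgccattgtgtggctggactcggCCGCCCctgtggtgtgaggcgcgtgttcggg
HNRNPL, chr19:38852298-38852597, minus strand: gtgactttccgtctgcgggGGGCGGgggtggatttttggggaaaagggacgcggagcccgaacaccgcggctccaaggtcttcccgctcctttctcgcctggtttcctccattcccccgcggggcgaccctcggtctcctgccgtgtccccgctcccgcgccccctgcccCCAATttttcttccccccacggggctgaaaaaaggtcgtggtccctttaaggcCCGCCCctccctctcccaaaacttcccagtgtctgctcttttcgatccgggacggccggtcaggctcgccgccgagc
HNRNPL, chr19:38849937-38850236, minus strand: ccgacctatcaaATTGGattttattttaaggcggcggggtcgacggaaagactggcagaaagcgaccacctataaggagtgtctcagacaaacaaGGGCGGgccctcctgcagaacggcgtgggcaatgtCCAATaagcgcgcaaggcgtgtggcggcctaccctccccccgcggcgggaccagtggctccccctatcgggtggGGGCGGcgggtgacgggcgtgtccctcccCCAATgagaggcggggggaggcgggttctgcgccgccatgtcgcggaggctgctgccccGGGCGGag
PRPF31, chr19:54115504-54115803, plus strand: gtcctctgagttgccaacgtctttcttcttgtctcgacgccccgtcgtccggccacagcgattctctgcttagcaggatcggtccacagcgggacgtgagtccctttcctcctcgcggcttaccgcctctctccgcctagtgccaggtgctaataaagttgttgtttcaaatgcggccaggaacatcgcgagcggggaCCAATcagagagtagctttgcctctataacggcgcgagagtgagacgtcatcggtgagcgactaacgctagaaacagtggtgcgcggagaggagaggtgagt
SRSF10, chr1:23980278-23980577, minus strand: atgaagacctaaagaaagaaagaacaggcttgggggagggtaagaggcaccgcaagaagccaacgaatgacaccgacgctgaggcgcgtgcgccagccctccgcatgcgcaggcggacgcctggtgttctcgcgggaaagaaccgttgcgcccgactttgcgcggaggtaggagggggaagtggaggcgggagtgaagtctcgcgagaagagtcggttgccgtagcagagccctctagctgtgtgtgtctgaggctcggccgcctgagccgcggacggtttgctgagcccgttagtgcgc

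SRSF6 held 3 GC boxes, at 49 and 37 bases before the start and 20 bases after it. The HNRNPL promoters held 2 and 3 GC boxes and 1 and 3 CCAAT boxes, PRPF31 held 1 CCAAT box 52 bases before the start, and SRSF10 matched no motif searched. A GC box was in 64.7% of the 17 promoters of genes called lower in either comparison, 51.5% of the 66 promoters of the other splicing genes and 45.0% of all 35116 promoters of this length. A CCAAT box was in 47.1%, 37.9% and 34.6%. The ETS motif was in 17.6% of the promoters of lower genes, 30.3% of those of the other splicing genes and 10.3% of all promoters. The EGR1 motif was in 1 of the 17, in 2 of the 66 and in 0.795% of all, and the cAMP response element was in 0 of the 83, beside 1.85% of all. The EGR1 motif ends in GGGCG, the first letters of the GC box, and the other motifs share no such run. A match is a description of these windows, and the shares carry no test.

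Probe sets of the same gene often disagreed, and the gene value hides this. Of the 48 genes with 2 or more probe sets, 20 had probe sets spread over more than 1 log2 unit for estradiol against vehicle and 21 for ERα17p. All probe sets were past 1.5-fold on the lower side in 5 genes in each comparison, and on the higher side in 0. Neither count was made over all genes, so it is not known whether splicing genes stand apart in this. Among single probe sets of the 66 genes, 45 of 193 (23.3%) were at least 1.5-fold lower with estradiol and 18 (9.33%) higher, beside 11.4% and 14.1% of the 41097. For ERα17p 47 (24.4%) were lower and 17 (8.81%) higher, beside 11% and 13.1%.

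TRA2A had the widest spread for estradiol, 3.24; for ERα17p SNRPE (3.04) and HNRNPD (3.01) spread wider than TRA2A (2.70). Of its 5 probe sets, 3 were at -3.10, -2.81 and -2.31 for estradiol and -2.81, -2.36 and -1.93 for ERα17p, and on the vehicle array these stood at 2.80, 2.57 and 1.55. The other 2 were at 0.00 and 0.15 for estradiol, and -0.11 and -0.24 for ERα17p, and both stood at 0.00 on vehicle. U2AF1 likewise had 2 of 4 probe sets at -1.70 and -1.68 for estradiol and the others at -0.44 and 0.20.

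In several genes 1 probe set stood far from the rest. SNRPE had 1 of 3 at -2.70 for estradiol and -2.68 for ERα17p, with the others between 0.12 and 0.36. HNRNPD had 1 of 9 at -2.13 and -2.46, and TRA2B 1 of 4 at -1.71 and -1.39. HNRNPU, by contrast, had 1 of 5 at 1.49 and 1.34 on the higher side. Of the 48 genes with 2 or more probe sets, 9 whose own value was inside 1.5-fold held a probe set at least 2-fold lower with estradiol and 9 with ERα17p, and 4 and 5 held one at least 2-fold higher. Of all 10523 genes with 2 or more probe sets, 5.89% held such a lower probe set with estradiol and 5.04% with ERα17p, and 6.93% and 6.09% a higher one. These shares were not matched for the number of probe sets per gene, which affects how many genes hold such a probe set. Counted as probe sets, 25 of the 193 (13.0%) were 2-fold lower with estradiol and 4 higher, beside 4.02% and 6.14% of all 41097. With ERα17p 26 (13.5%) were 2-fold lower and 5 higher, beside 3.82% and 5.63%.

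SRSF1 had probe sets past 1.5-fold in opposite directions. Of its 8, 3 were lower with estradiol (-1.34, -1.25 and -0.59), 1 was higher (1.27), and the remaining 4 were between -0.21 and 0.36, so that the gene value was -0.01. HNRNPH1 had 1 of 4 lower (-1.43) and 1 higher (0.68) with estradiol, and SRSF4 had 1 of 5 lower (-1.33) and 1 higher (0.70). These 3 genes and U2AF2 (-0.77 and 0.65) were split in this way with ERα17p. Which exons, introns or transcript ends these probe sets read is not stated in the files, and the splits were not assigned to transcript forms.

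**Figure D4:**
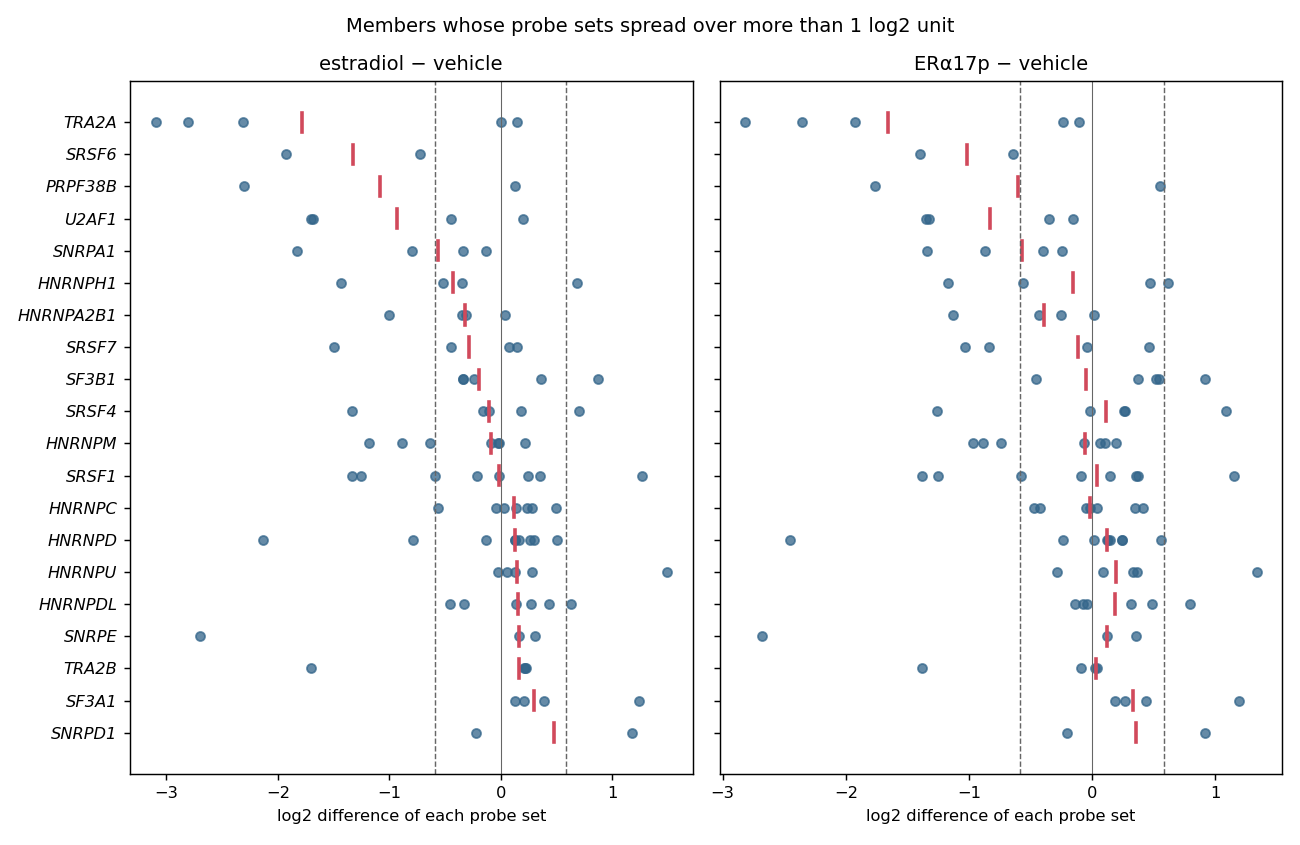
Log2 difference of each probe set (points) and of the gene (red bar) for the 20 genes whose probe sets spread over more than 1 log2 unit for estradiol against vehicle, with ERα17p against vehicle on the right and the 1.5-fold limits dashed. TRA2A holds 3 probe sets at -2.31 or below and 2 near 0 for estradiol, and SRSF1 has points on both sides.

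Between the treated arrays the members were close. PRPF38B (0.48), SRSF6 (0.31), U2AF2 (0.29), HNRNPH1 (0.27), PRPF6 (0.22), SRSF4 (0.22), SNRPN (0.21) and SRSF12 (0.19) were the highest on ERα17p. HNRNPH1 was at 0.16, -0.27 and -0.00 in the same order, SRSF4 at -0.01, -0.12 and 0.10, and SNRPN at -0.03, -0.40 and -0.19. SNRPA (-0.41), PRPF40B (-0.26), PRPF18 (-0.26), HNRNPA0 (-0.22), HNRNPH3 (-0.20), SRSF5 (-0.18), HNRNPC (-0.14) and TRA2B (-0.13) were the lowest. PRPF18, a factor of the second catalytic step, was at 0.16, 0.00 and -0.26, HNRNPH3 at -0.06, 0.11 and -0.09, and HNRNPC at 0.00, 0.12 and -0.02. The median over the 66 genes was -0.00, and over all genes -0.01. Among single probe sets 6 were at least 1.5-fold higher and 2 lower (3.11% and 1.04%, beside 3.61% and 3.27% of all). They include 2 probe sets of SF3B1 at 0.86 and 0.78, while its other 3 were between -0.12 and 0.05, and 1 of HNRNPH1 at 0.96.

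Other splicing genes, listed by function and not by symbol family, together also had more lower than higher members against vehicle. Of 106 such genes with a value, 20 were lower and 6 higher with estradiol (18.9% and 5.66%, median -0.12). With ERα17p 15 were lower and 6 higher (14.2% and 5.66%, median -0.10). The shares over all genes were 8.25% lower and 10.4% higher with estradiol, and 8.53% and 9.27% with ERα17p. Between the treated arrays 1 of the 106 was higher and 0 lower, beside 1.25% and 2.06% of all genes. Among other snRNP and LSm proteins 5 of 23 were lower (21.7%) and 1 higher (4.35%) with each treatment. The U5 helicase gene SNRNP200 was at -0.86 and -0.44, SNRNP70, a U1 protein, was at -0.74 and -0.73, the tri-snRNP helicase DDX23 at -0.83 and -0.79, the LSm ring subunit LSM7 at -0.85 and -0.71, and USP39 at -0.85 and -0.71, while the LSm subunit LSM6 was at 0.72 and 0.60.

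In the list of the Prp19 complex and second-step factors 4 of 18 were lower with estradiol (22.2%) and 2 with ERα17p (11.1%), 0 higher. XAB2 was at -1.06 and -1.04 and CTNNBL1 at -0.85 and -0.80. Of 11 splicing helicases 2 were lower (18.2%) and 1 higher (9.09%) with each treatment. Over all genes 8.25% were lower and 10.4% higher with estradiol, and 8.53% and 9.27% with ERα17p. The higher share of the helicases was thus near that of all genes, and these lists are small. DHX15, which takes spent spliceosomes apart, was at 0.99 and 1.19, opposite in direction to DDX41 (-0.94 and -0.93), lower in both. The other lower call was DDX17 for estradiol (-0.84, and -0.52 with ERα17p) and DHX8 for ERα17p (-0.64, and -0.39 with estradiol). DHX9 was 0.64 higher on the ERα17p array than on the estradiol array.

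The list of other regulators had 5 of 35 lower and 4 higher with estradiol (14.3% and 11.4%), beside 8.25% and 10.4% of all genes. With ERα17p it had 2 lower and 4 higher (5.71% and 11.4%), near the 8.53% and 9.27% of all genes. The FET-family protein gene TAF15 was at -1.12 and -1.03, LUC7L3 at -0.93 and -0.44, the poly(C)-binding protein gene PCBP1 at 0.88 and 0.85, and NONO, a paraspeckle protein, at 0.83 and 0.66. Genes of the exon junction complex and of the decay of mRNAs with premature stops had 4 of 12 lower (33.3%) and 0 higher with each treatment. Over all genes 8.25% and 8.53% were lower, and 10.4% and 9.27% higher. The lower genes of this list were led by SMG5 (-0.93 and -0.82) and SMG9 (-0.79 and -0.81), with RNPS1 at -0.63 and -0.66. Of 7 kinases that phosphorylate SR proteins 0 passed 1.5-fold; SRPK2 was at 0.53 and 0.41, SRPK1 at 0.36 and 0.24, and CLK1 at 0.10 and 0.34.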

How the data were processed

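Total RNA of 3 MDA-MB-231 cultures, 1 per group, was hybridised to 1-colour arrays. RMA (background correction, quantile normalisation and probe summary on a log2 scale) is named, with no version, in the submitters' processing notes; the authors' deposited values were taken as log2 for that reason, and their base is not stated. Each deposited array had a median of 0, with 7.08%, 8.14% and 8.54% exact zeros on vehicle, estradiol and ERα17p, so they had also been centred per probe set; scale base and reference stay unknown, and no detection filter was possible.

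Gene symbols came from the platform annotation; all 66 genes were found by Entrez identifier in RefSeq GRCh38.p14, and 0 symbols differed. Gene values and differences were computed with Python 3.11.15, pandas 2.3.3 and NumPy 2.4.6, and checked on simulated data. The members and lists were chosen with earlier results of these data known. Any member could be named; values on all arrays are given for the 12 farthest in each direction against vehicle, the 8 between treatments and the 2 farthest per role group, and from the other lists up to 4 genes. Genes named beyond these were chosen after their values were seen. Alternatives were the mean of probe sets, quantile normalisation, and leaving out _x_at and _s_at probe sets (which can match several transcripts). Others were leaving out genes with a pseudogene symbol in the platform annotation, and centring arrays on the gene median. A further 2 were chosen after seeing the data.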

Additional observations from a re-analysis of the deposited data

How the results depend on the processing

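No paired analysis was possible because each group is 1 array, and no replicate could be left out. The counts of lower genes were 12 to 17 for estradiol and 10 to 18 for ERα17p over the planned settings. The medians lay between -0.30 and -0.10, all below 0. Over all genes the lower shares in those settings were 6.10% to 8.46% for estradiol and 7.44% to 8.72% for ERα17p. The higher shares were 9.34% to 10.6% and 8.08% to 9.72%. Between the treated arrays the higher share over all genes was 3.15% after quantile normalisation and 1.75% without _x_at and _s_at probe sets. Quantile normalisation gave 10 lower for ERα17p, 0 higher for estradiol and 1 higher between the treated arrays (PRPF38B, 0.63). The mean of probe sets gave 0 higher for estradiol. Without _x_at and _s_at probe sets 52 genes remained, fewer being measured: 4 were higher for estradiol, 4 for ERα17p and 2 between the treated arrays, the estradiol median was -0.30, and 14 and 13 were lower, of which 8 and 9 were also lower with all probe sets; PRPF31 was then at -0.24 and -0.01. Leaving out HNRNPA1 and HNRNPA3, the members with a pseudogene symbol in the platform annotation, gave 14 and 15 lower. Pseudogene copies of other members were not looked for. Chosen after seeing the data, genes with 2 or more probe sets gave 10 and 11 of 48 lower, with an ERα17p median of -0.05. The share over all genes with 2 or more probe sets was not counted. The median of probe set differences gave 15 and 18, beside 8.42% and 8.82% lower over all genes. No called gene changed sign under the settings run on single genes; genes not called did, among them SNRPE and TRA2B, which were below 0 in both comparisons with the mean of probe sets, and SNRPE also without _x_at and _s_at probe sets. Signal over background is unknown, so some of these genes may lie near the limit of detection.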

Other observations

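Counted by probe set type, with no test, among the 96 with the plain _at suffix, 28 (29.2%) were lower by 1.5-fold or more with estradiol and 6 (6.25%) higher, beside 10.6% and 12.8% of all such probe sets. Among the 69 with the _s_at suffix 13 (18.8%) were lower, beside 12.9%, and 6 (8.70%) higher, beside 18.6%. Among the 24 with the _x_at suffix 4 (16.7%) were lower, near the 15.4% of all such probe sets. Another 4 (16.7%) of them were higher, beside 11.3%. With ERα17p 26 (27.1%), 15 (21.7%) and 5 (20.8%) of these types were lower, beside 10.3%, 12.2% and 14.5% of all probe sets of each type. In the same order 8 (8.33%), 5 (7.25%) and 3 (12.5%) were higher with ERα17p, beside 11.8%, 17.7% and 10.4%. By the sequence the platform annotation gives for each, 7 of 45 (15.6%) of those designed on a RefSeq transcript and 28 of 112 of those designed on another GenBank sequence were lower with estradiol, beside 10.7% and 10.8% of all probe sets; 36 had no sequence named. By that sequence the ERα17p shares were 20.0% and 25.9%, beside 10.9% and 10.3%.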
